A study of Mus musculus with 40 samples.

Results

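The genes described here are 10 regulators and targets of YAP and TAZ, measured by RNA-Seq in primary mouse embryonic fibroblasts (MEFs) from embryos that were WT, Het (1 intact copy) or KO for the transcription factor gene Sall2, with and without doxorubicin, a drug that poisons topoisomerase II and damages DNA. They were chosen by gene symbol (Ankrd1, Ctgf, Cyr61, Amotl1, Amotl2, Lats2, Axl, Tead1, Yap1 and Wwtr1), all 10 are among the 24062 genes of the count table, and all 10 passed the filter on low counts. The choice was made with the response of these cells to doxorubicin in view. The change of each of the 10 genes with doxorubicin is therefore given as a description, with no test. The MEFs came from embryos at 13.5 days post coitum of a mixed C57BL/6J-129P2OlaHsd strain at passage 3, and the treated cultures had received 1 µM doxorubicin for 16 h. The 9 libraries used were 1 WT, 1 Het and 3 KO control libraries and 1 WT, 1 Het and 2 KO doxorubicin libraries. A doxorubicin library deposited for KO embryo 3 held the same count as that of KO embryo 2 in 24062 of 24062 genes, so the pair was counted as 1 library. WT and Het were each 1 embryo, every line carries the mixed strain background, and the knockout allele contains a neomycin cassette.

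YAP (gene Yap1) and TAZ (gene Wwtr1) are transcriptional coactivators that do not bind DNA themselves and act on genes through TEAD factors such as TEAD1. The Hippo kinases LATS1 and LATS2 phosphorylate both proteins and keep them out of the nucleus, and the angiomotins AMOT, AMOTL1 and AMOTL2 bind them and hold them in the cytoplasm or at junctions. In fibroblasts their activity is known to follow cell spreading, tension on the cytoskeleton and serum. Ankrd1, Ctgf and Cyr61 are the targets most often read as a measure of that activity. Phosphorylation and the place of the proteins in the cell were not measured, and the values below are RNA levels.

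The library totals ran from 15560728 to 24122414 counts. Sall2 itself had 37.0 CPM (counts per 1000000 counts) in the WT control library, 24.3 CPM in the Het control library and 19.1 to 23.8 CPM in the KO control libraries. With doxorubicin it had 9.35 CPM in WT, 8.34 CPM in Het and 3.72 to 4.24 CPM in KO. The KO libraries were lower than WT in both treatments but not at 0, and the KO2 control was level with the Het control. Before any result, 2 of the 5 control libraries stood apart from the rest, those of the Het embryo and of KO embryo 3. The summed level of 8 interferon-response genes was 1705 and 1796 CPM in them and 33.4 to 42.5 CPM in the other 3, with all 8 genes higher. The summed level of 6 macrophage markers was 587 and 431 CPM against 92.1 to 157 CPM, with 5 of the 6 genes higher. All 8 fibroblast markers were lower in these libraries, with sums of 12114 and 10641 CPM against 45178 to 52992 CPM. The Het doxorubicin library had the same direction of difference from the other doxorubicin libraries, with 664 CPM of macrophage markers against 89.7 to 130 CPM and 13704 CPM of fibroblast markers against 32652 to 38152 CPM. In bulk RNA, fewer cells of a type and less RNA per cell cannot be told apart. Of the other marker lists, 6 of 7 smooth muscle genes were lower in the Het and KO3 control libraries, with sums of 8866 and 8257 CPM against 12926 to 20696 CPM. Of 6 epithelial genes 3 were lower and 1 was higher there, and of 6 endothelial genes 2 were lower and 2 higher. The sums of both lists lay within the range of the other controls, 10.6 to 21.1 CPM for epithelial and 18.4 to 46.4 CPM for endothelial genes. In the Het and KO3 controls 7 of 10 striated muscle genes were higher and 1 was lower. The striated muscle sum was 151 CPM in Het and 79.8 CPM in KO3, against 85.1 to 119 CPM in the other controls. Ckm was under 1 CPM in every library, and the epithelial markers Krt8 and Krt14 were under 1 CPM in every library.

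The 6 letters GGAATG, or CATTCC on the other strand, are those that TEAD factors are known to bind, and they are shown here because 7 of the 8 genes with a promoter entry carry them. The RefSeq promoter windows (GRCm38.p6) run from 250 bases before to 50 bases after a start site. Entries were matched for 8 of the 10 genes, and those of Ctgf and Tead1 were not used here. The letters were present in 14.7% of all 32851 windows of 300 bases, and in at least 1 window of 16.6% of 27025 genes. Each stretch below is 30 bases read 5′ to 3′ on the strand of the gene, with the matching letters in capitals.
Ankrd1, chr19:36120037-36120066, minus strand: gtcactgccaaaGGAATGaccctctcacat
Ankrd1, chr19:36119950-36119979, minus strand: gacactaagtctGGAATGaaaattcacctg
Cyr61, chr3:145650071-145650100, minus strand: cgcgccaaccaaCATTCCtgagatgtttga
Amotl2, chr9:102717727-102717756, plus strand: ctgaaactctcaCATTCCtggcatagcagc
Axl, chr7:25788949-25788978, minus strand: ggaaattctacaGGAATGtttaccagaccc
Yap1, chr9:8004720-8004749, minus strand: cgggagtctgcaGGAATGtagcgacgcgca
Wwtr1, chr3:57576029-57576058, minus strand: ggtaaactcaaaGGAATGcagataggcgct
Lats2, chr14:57746102-57746131, minus strand: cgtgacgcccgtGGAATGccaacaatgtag

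Start sites here are those of the RefSeq windows. For Ankrd1 (36119844), Amotl2 (102717804), Lats2 (57746123) and Amotl1 (14615000) they lie inside the GENCODE gene spans given below. The matches of Ankrd1, Amotl2 and Lats2 therefore also lie within those spans. Ankrd1 was the gene with 2 matches in its window, beginning 210 and 123 bases before its RefSeq start site. The match of Cyr61 began 103 bases before its start site, that of Amotl2 65 bases, that of Yap1 141 bases and that of Axl 233 bases. The Lats2 match began at base 5 from the RefSeq start site 57746123, and the Lats2 window with start site 57734418 held none. No match was found in the Amotl1 window. The AP-1 letters TGANTCA, in which N is any base and which read the same on the other strand, were in none of these windows and in 7.81% of all windows. To set a gene that was far lower with doxorubicin beside one that was not, the 250 bases before the start sites of Cyr61 (chr3:145649986-145650235, minus strand) and Axl (chr7:25788734-25788983, minus strand) are given whole, with the TEAD letters in capitals.
Cyr61: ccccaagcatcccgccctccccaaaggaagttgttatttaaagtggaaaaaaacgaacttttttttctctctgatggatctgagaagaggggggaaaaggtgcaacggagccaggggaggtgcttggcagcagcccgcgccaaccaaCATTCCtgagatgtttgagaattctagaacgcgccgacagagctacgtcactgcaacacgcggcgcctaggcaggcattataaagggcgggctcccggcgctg
Axl: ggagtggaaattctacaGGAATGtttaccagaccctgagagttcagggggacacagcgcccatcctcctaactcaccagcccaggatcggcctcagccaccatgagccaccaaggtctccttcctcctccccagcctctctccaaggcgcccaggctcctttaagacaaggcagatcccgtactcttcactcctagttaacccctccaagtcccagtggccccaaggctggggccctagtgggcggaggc

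The Cyr61 stretch is 54.8% G and C and the Axl stretch 60.0%. Both hold the letters, and the 2 genes were picked because their RNA differed widely in its change with doxorubicin, as given below. Among the other genes tested that have a promoter entry, 27.1% of the 1641 with the TEAD letters were called lower with doxorubicin, against 29.2% of the 9435 without them. A match is a description of the sequence and not a measured binding site, and the part of the letters in any change was not tested.

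Treated cultures were compared with controls in every genotype. Levels are given as CPM after TMM scaling across the 9 libraries. The targets Ankrd1, Ctgf and Cyr61 were the most changed of the 10 genes, and Ankrd1, which encodes a nuclear and sarcomeric ankyrin repeat protein induced by stretch, had the largest change. Ankrd1 is on chr19:36111961-36120099 (minus strand, GRCm38). In the control libraries it had 178 CPM in WT, 161 CPM in Het, and 207, 107 and 165 CPM in KO embryos 1, 2 and 3. With doxorubicin the same gene had 5.87 CPM in WT, 10.9 CPM in Het, and 4.02 and 3.81 CPM in KO embryos 1 and 2. The groups did not overlap, and the lowest control library was well above the highest treated one. Behind these levels are 1948 to 4114 reads in a control library and 72 to 214 reads in a treated one. Within embryos the log2 ratio of doxorubicin to control was -4.92 in WT, -3.88 in Het, -5.69 in KO1 and -4.82 in KO2, a mean of -4.83 ± 0.74 (SD, n = 4). The level left with doxorubicin was 1.94% to 6.78% of that embryo's own control. Ordered by fitted log2 fold change, Ankrd1 took place 2 from the bottom of 14883 genes tested (log2 fold change -4.90, SE 0.34). It was the 872nd to 2046th most counted gene in control libraries and the 9318th to 11334th in treated ones. The Het doxorubicin library had the highest treated level of Ankrd1. It also had the highest summed striated muscle markers of the treated libraries, 124 CPM against 56.9 to 96.2 CPM. Its macrophage sum was the highest too, 664 CPM against 89.7 to 130 CPM. Among controls Het had the highest striated muscle sum as well, 151 CPM, with Ankrd1 inside the range of the other controls. The part of these markers in the level was not tested.

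Ctgf (Ccn2, chr10:24595442-24598683, plus strand) encodes connective tissue growth factor, a secreted matricellular protein of the CCN family. It was among the most abundant RNAs of the untreated MEFs, ranked 14 to 36 by count, and took 0.186% to 0.466% of all counts in a control library. Its control levels were 3848 CPM in WT, 1785 CPM in Het, and 5563, 3649 and 1531 CPM in KO embryos 1, 2 and 3. Doxorubicin libraries had 361 CPM in WT, 261 CPM in Het, and 364 and 243 CPM in KO1 and KO2. All 4 treated libraries were below all 5 controls, although the controls spanned 3.63-fold. Log2 ratios within embryos averaged -3.51 ± 0.54 (SD, n = 4), from -3.93 in KO1 to -2.77 in Het.

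Cyr61 (Ccn1, chr3:145646976-145649981, minus strand), another secreted CCN protein and an immediate early gene, had a similar course. It had 1167 CPM in WT, 554 CPM in Het, and 1576, 1171 and 510 CPM in the KO controls 1, 2 and 3. The treated libraries lay close together, at 103 CPM in WT, 114 CPM in Het, and 99.3 and 99.4 CPM in KO1 and KO2. The spread of its levels was 3.09-fold among controls and 1.15-fold among treated libraries, and the groups did not overlap. Its log2 ratio within embryos averaged -3.33 ± 0.73 (SD, n = 4), and it was the Het embryo, whose control was low, that gave the smallest change (-2.28).

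**Figure D1:**
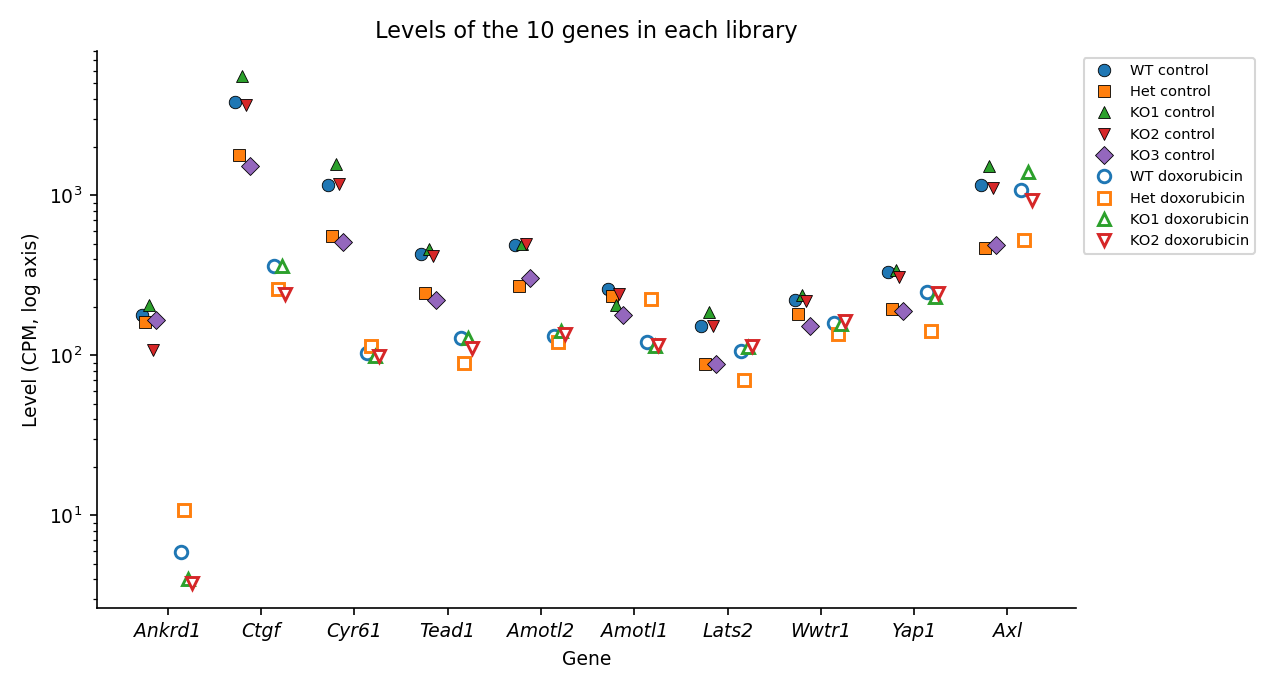
Levels of the 10 genes in CPM (vertical log axis) in the 5 control libraries (filled) and 4 doxorubicin libraries (open), with a symbol and colour for each embryo and the genes ordered by their mean change. The 4 treated libraries of Ankrd1 lie between 3.81 and 10.9 CPM, under controls of 107 CPM or more, whereas those of Axl lie among their controls.

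Axl, a receptor tyrosine kinase for GAS6 that is also described as a YAP target, did not share this change. On chr7:25757273-25788705 (minus strand), it had 1168 CPM in WT, 471 CPM in Het, and 1520, 1117 and 487 CPM in KO1, KO2 and KO3 without the drug. With doxorubicin the levels were 1083 CPM in WT, 524 CPM in Het, and 1398 and 933 CPM in KO1 and KO2. The groups overlapped over nearly the whole range. The log2 ratio within embryos was -0.11 in WT, 0.15 in Het, -0.12 in KO1 and -0.26 in KO2, a mean of -0.08 ± 0.17 (SD, n = 4). The sign of the fitted value turned with the model, from 0.10 (SE 0.33) with genotype as the covariate to -0.08 (SE 0.10) with the embryo as a replicate block.

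Tead1, the DNA-binding partner of YAP and TAZ, was lower with doxorubicin in each embryo. Located at chr7:112679318-112906807 (plus strand), it had 432 CPM in WT, 246 CPM in Het, and 459, 416 and 222 CPM in KO1, KO2 and KO3 controls. Treated libraries had 129 CPM in WT, 89.3 CPM in Het, and 128 and 111 CPM in KO1 and KO2. No treated library reached the lowest control. The mean log2 ratio was -1.74 ± 0.19 (SD, n = 4), and 26.7% to 36.3% of the level was left.

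The coactivators changed far less than their DNA-binding partner. Yap1 (chr9:7931999-8004596, minus strand) had 332 CPM in WT, 195 CPM in Het, and 342, 307 and 188 CPM in the KO controls, against 248, 141, 232 and 245 CPM in the treated WT, Het, KO1 and KO2 libraries. Wwtr1 (chr3:57455649-57575910, minus strand) had 222, 181, 240, 217 and 153 CPM in the WT, Het, KO1, KO2 and KO3 controls and 158, 135, 157 and 164 CPM in the treated WT, Het, KO1 and KO2 libraries. The groups overlapped for both genes. For Yap1 the Het and KO3 controls, and for Wwtr1 the KO3 control, lay within the range of the treated libraries. Within embryos Yap1 had a log2 ratio of -0.44 ± 0.09 (SD, n = 4) and Wwtr1 of -0.48 ± 0.10 (SD, n = 4). All 4 embryos were lower for both genes when the duplicated library was taken as that of KO2, and against the KO3 control its ratio was above 0, at 0.38 for Yap1 and 0.10 for Wwtr1.

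Among the inhibitors, Amotl2, an angiomotin that is itself a YAP target, was the most changed. Amotl2 (chr9:102716672-102733418, plus strand) had 493, 270, 496, 499 and 304 CPM in the WT, Het, KO1, KO2 and KO3 controls. The 4 treated libraries lay between 122 and 142 CPM, below every control. Its log2 ratio was -1.68 ± 0.36 (SD, n = 4), and the Het embryo stood apart with -1.15. Amotl1 (chr9:14541966-14645056, minus strand) had 258, 236, 206, 240 and 179 CPM in the same order of controls. Treated WT, KO1 and KO2 libraries had 122, 115 and 116 CPM, whereas the treated Het library had 226 CPM, inside the range of the controls. The log2 ratio of Amotl1 was accordingly -0.06 in Het and -1.08, -0.84 and -1.05 in WT, KO1 and KO2. Lats2 (chr14:57689662-57758388, minus strand), the kinase that phosphorylates YAP and TAZ and is transcribed in response to them, had 152, 88.6, 187, 153 and 88.7 CPM in the controls and 106, 70.5, 112 and 114 CPM in the treated WT, Het, KO1 and KO2 libraries. Its mean log2 ratio was -0.50 ± 0.17 (SD, n = 4), with overlapping groups. Lats2 lies 5.36 Mb from Sall2 on the same chromosome, and the study describes sequence of 129 origin around Sall2 on this chromosome in the KO embryos. The part of that in the levels of Lats2 was not tested.

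**Figure D2:**
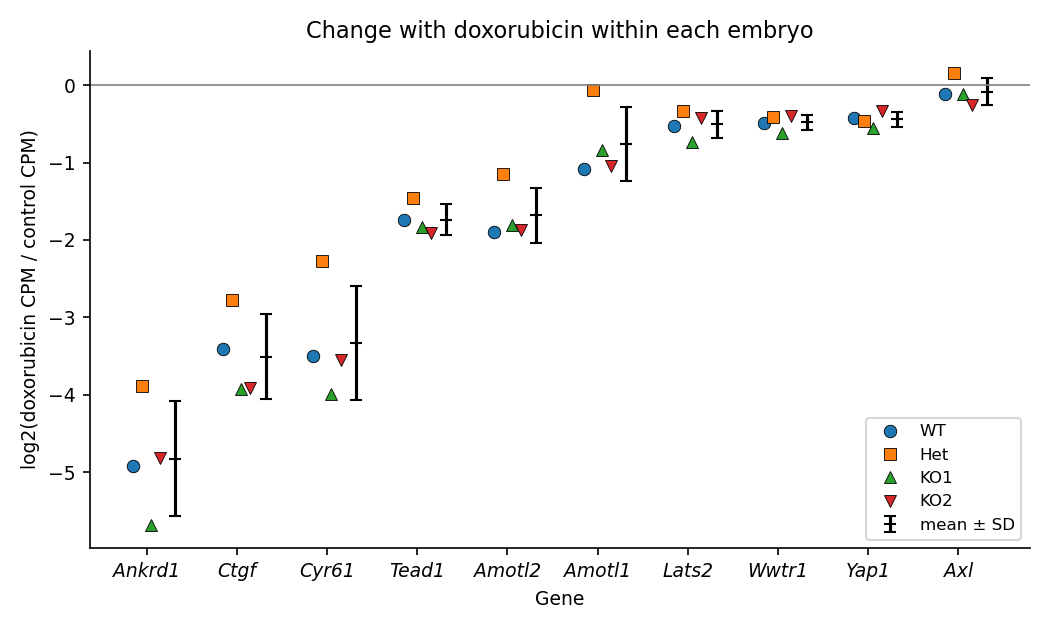
Log2 ratio of the doxorubicin level to the control level of the same embryo (vertical axis) for the 10 genes, with a point for each of the WT, Het, KO1 and KO2 embryos and a bar for their mean ± SD (n = 4). The means run from -4.83 for Ankrd1 to -0.08 for Axl, and the Het embryo has the smallest change in Ankrd1, Ctgf, Cyr61, Tead1, Amotl2, Amotl1 and Lats2.

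For 5 of the 10 genes (Ankrd1, Ctgf, Cyr61, Tead1 and Amotl2) the treated libraries lay below all controls, as did 23.0% of the 14883 genes tested. Since the genes were chosen with this contrast known, nothing is read from that count. Markers of cell types were also read by edgeR at FDR under 0.05, at which 28.1% of all genes tested were called lower and 28.5% higher. With the embryo block these shares were 34.8% and 36.9%. The marker lists are short, and their counts are not read as a change of cell types. All 5 endothelial markers tested were higher, with summed levels over the list of 18.4 to 46.4 CPM in controls and 38.5 to 92.3 CPM in treated libraries. Of the macrophage markers Cd68 was higher and Csf1r lower, with 4 not called. Of the epithelial markers Epcam and Cdh1 were higher and Krt18 and Cldn4 lower, at sums of 21.1 CPM or less. In controls Epcam had at most 0.352 CPM, Cdh1 0.402 CPM and the endothelial markers Vwf 0.911 CPM and Pecam1 2.11 CPM. These low genes met the count filter through the treated libraries, where they were higher, so nothing is read from their calls. Among fibroblast markers 1 of 8 was lower (Pdgfrb, log2 fold change -2.80). Among smooth muscle markers 2 of 7 were lower (Lmod1, -2.68, and Smtn, -0.78) and 5 were not called, with a list median of 0.47. With the embryo as a replicate block 3 smooth muscle markers were called lower and 4 higher. The block called 3 fibroblast markers lower and 1 higher. Without the embryo block no striated muscle or interferon-response gene was called. With it, 4 of 8 interferon-response genes were called higher, and 1 striated muscle gene was called higher and 2 lower. The summed interferon-response level rose with doxorubicin in WT (33.4 to 294 CPM), KO1 (42.5 to 352 CPM) and KO2 (33.6 to 374 CPM). In Het that sum fell from 1705 to 777 CPM. Of 5 p53 targets Cdkn1a was lower (-0.64), and with the block Trp53inp1 was called higher (0.44). The part of these differences in the levels of the 10 genes was not tested. The median of their 10 fitted log2 fold changes was -1.16, beside -0.02 over all genes tested. As the genes were chosen with this contrast known, nothing is read from that difference either. Without the Het and KO3 libraries the fitted values were -5.19 (SE 0.26) for Ankrd1, -3.76 (SE 0.23) for Ctgf, -3.70 (SE 0.15) for Cyr61, -1.83 (SE 0.10) for Tead1 and -1.86 (SE 0.09) for Amotl2. In that fit Amotl1 was at -1.0, Lats2 at -0.57, Wwtr1 at -0.51, Yap1 at -0.44 and Axl at -0.17. Every one of these was further below 0 than with all 9 libraries, in which Amotl1 was at -0.73, Lats2 at -0.38, Wwtr1 at -0.39, Yap1 at -0.32 and Axl at 0.10. Whether the duplicated library came from KO embryo 2 or KO embryo 3 is not known from the labels. The KO2 control had 92.1 CPM of macrophage, 52992 CPM of fibroblast and 33.6 CPM of interferon-response genes. The KO3 control had 431, 10641 and 1796 CPM in the same order. The duplicated library had 89.7, 32652 and 374 CPM. Set against the control of KO3 in place of KO2, it gave log2 ratios of -5.44 for Ankrd1, -2.66 for Ctgf, -2.36 for Cyr61, -1.15 for Amotl2, -1.0 for Tead1 and -0.63 for Amotl1. The ratio was then above 0 for Wwtr1 (0.10), Lats2 (0.36), Yap1 (0.38) and Axl (0.94), so for Wwtr1, Lats2 and Yap1 the direction in that culture depends on which embryo it came from.

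Levels of different genes were compared as CPM per kilobase of exon, on the union of GENCODE exons. Without the drug the order by median was Ctgf (1276 CPM per kb), Cyr61 (578), Axl (261), Amotl2 (97.9), Ankrd1 (81.9), Yap1 (73.6), Wwtr1 (45.5), Tead1 (39.8), Amotl1 (25.0) and Lats2 (22.8). Within each library Ctgf was above Cyr61 and Cyr61 above Axl in 5 of 5 controls. Across libraries the range of each gene overlapped that of the next, with the exception of Axl and Amotl2. Amotl2 was above Ankrd1 in 2 of 5 controls, so their order did not hold from library to library. With doxorubicin Axl came first (235 CPM per kb), followed by Ctgf (109), Yap1 (57.0), Cyr61 (50.2), Wwtr1 (32.9), Amotl2 (26.7), Lats2 (16.4), Amotl1 (12.6), Tead1 (11.5) and Ankrd1 (2.45). Ankrd1 was below Tead1 in 4 of 4 treated libraries, with no overlap of their ranges. Axl was above Ctgf in 4 of 4 although their ranges overlapped, and Yap1 was above Cyr61 in 3 of 4.

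**Figure D3:**
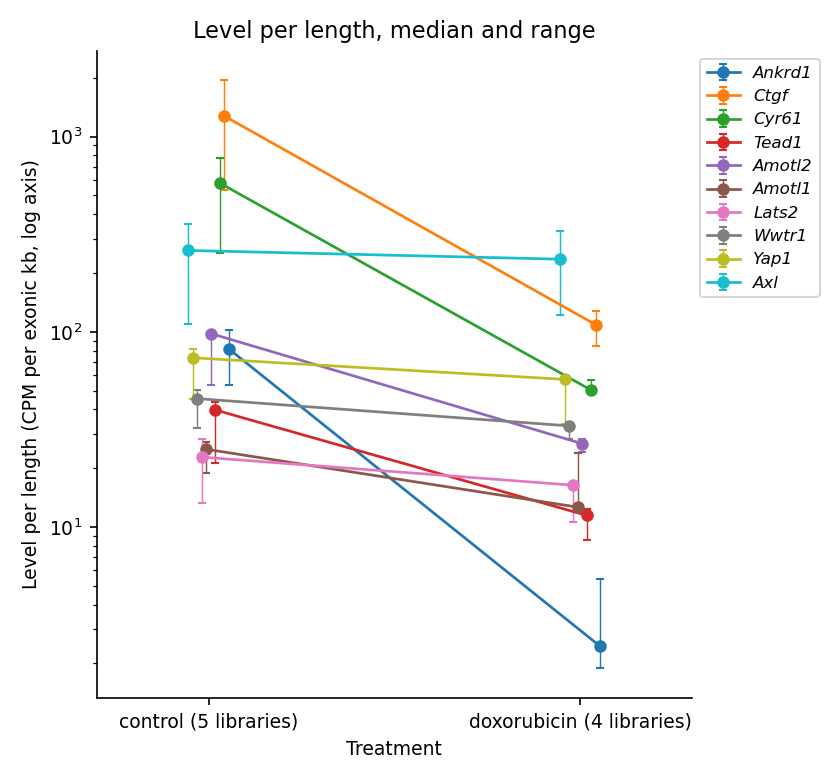
Level per length in CPM per kilobase of exon (vertical log axis) of the 10 genes in 5 control and 4 doxorubicin libraries, with points at the median and bars from the lowest to the highest library. Ankrd1 moves from place 5 (81.9) to place 10 (2.45), and Axl from place 3 (261) to place 1 (235).

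The untreated libraries also differed from each other in these genes. The mean level in the Het and KO3 controls, relative to the mean of the WT, KO1 and KO2 controls, was 0.378 for Axl, 0.381 for Ctgf, 0.408 for Cyr61, 0.538 for Tead1, 0.540 for Lats2, 0.579 for Amotl2, 0.585 for Yap1, 0.737 for Wwtr1 and 0.884 for Amotl1. Ankrd1 had a ratio of 0.993. Its lowest control was KO2 (107 CPM), which on the other genes was near WT. These are the libraries with high interferon-response and macrophage genes and low fibroblast markers, and the part of those differences in the levels here was not tested.

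**Figure D4:**
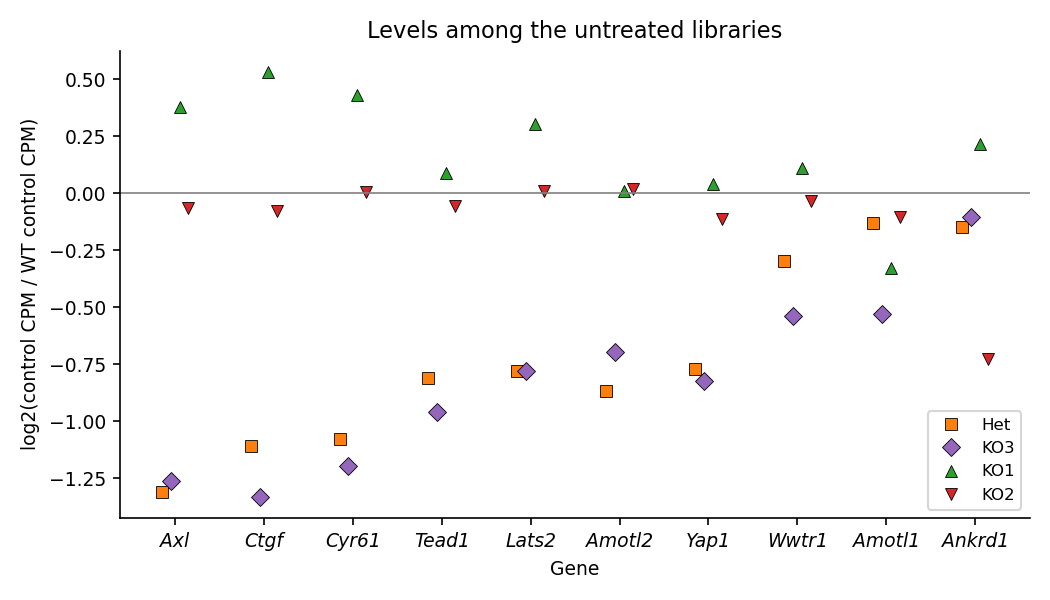
Log2 ratio of the level in each other control library to that in the WT control library (vertical axis) for the 10 genes, ordered by the ratio of the Het and KO3 controls to the rest. The Het and KO3 points lie below the KO1 and KO2 points from Axl to Wwtr1, and in Ankrd1 they lie at -0.15 and -0.10 with KO2 at -0.73.

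The study's question was the effect of Sall2 genotype. The 10 genes were tested for it, as the contrast in view when they were chosen was that of doxorubicin. Earlier results of these data were known at that choice. No gene of the 10 passed FDR under 0.05 in edgeR's quasi-likelihood test between KO and WT, without or with the drug, nor did the change with doxorubicin differ between KO and WT. Among controls 0 of 14470 genes were called (0%), with 10 at an unadjusted p under 0.05, and DESeq2 also called 0. Of the 15256 genes tested in treated libraries 0.302% were called. The interaction of KO and doxorubicin called 0% of 15905 genes, with 41 at an unadjusted p under 0.05, and DESeq2 called 0. With the embryo as a replicate block the interaction called 12 genes, none of them among the 10 or the pathway lists below. Each of these comparisons rests on 1 WT library per treatment, and a p that misses the threshold does not show that the groups are alike. Among controls Sall2 itself, with 37.0 CPM in WT and 19.1 to 23.8 CPM in KO, was not called. A missing call in that comparison therefore says little about the 10 genes. The study, with another normalization and test, reported genes that differed between WT and KO MEFs. Ankrd1 had 4.02 and 3.81 CPM in the treated KO libraries and 5.87 CPM in the treated WT library, a log2 fold change of -0.59 (SE 0.33, edgeR FDR = 1.00). Its difference in controls was -0.13 (SE 0.49), and the interaction was -0.43 (SE 0.59). The other 9 genes differed between treated KO and WT by -0.26 (Ctgf) to 0.10 (Axl) on the log2 scale, with SEs of 0.21 to 0.29. In controls their differences ran from -0.29 (Amotl1) to -0.07 (Lats2), with SEs of 0.39 to 1.08. The SE of Ctgf in that comparison was 1.08, as KO3 had 1531 CPM and KO1 5563 CPM.

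The other genes of the pathway were read from 4 lists. These were also drawn up with results of these data known, so their calls describe the listed genes and are no independent evidence about the lists. Over all genes tested, 28.1% were called lower and 28.5% higher at FDR under 0.05, and with the embryo block 34.8% were called lower and 36.9% higher. Of 22 Hippo kinases, scaffolds and upstream regulators, all of which were tested, 10 fell, 2 rose and 10 were not called, with a median log2 fold change of -0.56. Without the Het and KO3 libraries 16 fell and 3 rose. Leaving out the WT, KO1 or KO2 embryo alone gave 6 that fell. Taok2, a TAO kinase that acts on the Hippo kinases, fell from 79.7 to 98.8 CPM in controls to 20.0 to 28.8 CPM in treated libraries (log2 fold change -1.98, SE 0.14, edgeR FDR = 1.88e-05). Map4k4 fell by 1.36 on the log2 scale (SE 0.18, edgeR FDR = 0.000346). Lats1, the paralog of Lats2, fell from 57.1 to 109 CPM to 33.0 to 48.1 CPM (log2 fold change -1.0, SE 0.20, edgeR FDR = 0.00308). Wwc2, a KIBRA family scaffold, fell by 1.34 (SE 0.26), and the other TAO kinases Taok1 by 0.93 (SE 0.20) and Taok3 by 0.66 (SE 0.19), all past the same threshold, with overlapping groups for Taok3. Stk4, which encodes the Hippo kinase MST1, rose by 0.67 (SE 0.13, edgeR FDR = 0.00222), while Stk3, which encodes MST2, fell by 0.73 (SE 0.22, edgeR FDR = 0.0225). Mob1b, a LATS coactivator, rose by 0.55 (SE 0.14). The cadherin Fat1 had 1566, 324, 1616, 1394 and 244 CPM in the WT, Het, KO1, KO2 and KO3 controls and was called only with the embryo block (edgeR FDR = 0.0567, and 0.000522 with the block), as was the rise of Wwc1 (0.0557, and 0.0125 with the block).

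Of the 7 other TEAD and VGLL genes 5 were tested, of which 3 fell and none rose (4 fell without the Het and KO3 libraries, and 1 without the KO1 libraries). These were Tead2 (log2 fold change -0.76, SE 0.15), Tead3 (-0.53, SE 0.12) and Vgll3, a TEAD cofactor (-0.88, SE 0.21), each with no overlap between treated and control libraries. Tead4 was low, between 2.84 and 10.2 CPM, and had a log2 fold change of 0.07 (SE 0.41). Vgll1 and Vgll2 were under the filter.

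Of the 4 other CCN genes, 3 were tested. Wisp1 (Ccn4) fell from 424 to 793 CPM to 87.1 to 156 CPM, a log2 fold change of -2.30 (SE 0.24, edgeR FDR = 0.000107). Wisp2 (Ccn5) fell from 12.1 to 67.6 CPM to 1.53 to 5.35 CPM, with a log2 fold change of -3.39 (SE 0.32, edgeR FDR = 6.92e-05). Nov (Ccn3) had 4.51 and 3.11 CPM in the Het and KO3 controls and 37.2 to 107 CPM in the other controls, and its log2 fold change of 0.64 (SE 0.76) did not pass the test (edgeR FDR = 0.499). With the embryo block it was called higher (log2 fold change 0.34, SE 0.12, edgeR FDR = 0.0293).

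Of 16 further genes of a published YAP and TAZ target signature 5 fell, 2 rose and 9 were not called, with a median of -0.22. Leaving out WT, KO1 or KO2 alone left 3 that fell. With the embryo block 8 fell and 4 rose, and without the Het and KO3 libraries 9 fell and 4 rose. The genes that fell were Asap1 (log2 fold change -2.30, SE 0.26), Rbms3 (-2.14, SE 0.20), F3, which encodes tissue factor (-1.66, SE 0.31), Dock5 (-1.02, SE 0.30) and Myof (-0.95, SE 0.30). Foxf2, a forkhead factor of mesenchyme, rose from 2.16 to 3.57 CPM in controls to 12.4 to 13.4 CPM in treated libraries (log2 fold change 2.26, SE 0.21, edgeR FDR = 7.06e-05). Igfbp3, an IGF-binding protein, rose from 47.6 to 112 CPM to 122 to 236 CPM (log2 fold change 1.28, SE 0.24, edgeR FDR = 0.0023). Without the embryo block 5 of 16 fell and 2 rose, beside 28.1% and 28.5% of all genes tested. With the block 8 of 16 fell and 4 rose, beside 34.8% and 36.9%. As the list was drawn up with results of these data known, nothing is read from either comparison. Fjx1 fell, and Tgfb2 and Ccdc80 rose, only with the embryo block (edgeR FDR = 0.000428, 0.00597 and 0.0073, against 0.0502, 0.136 and 0.172 without it).

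**Figure D5:**
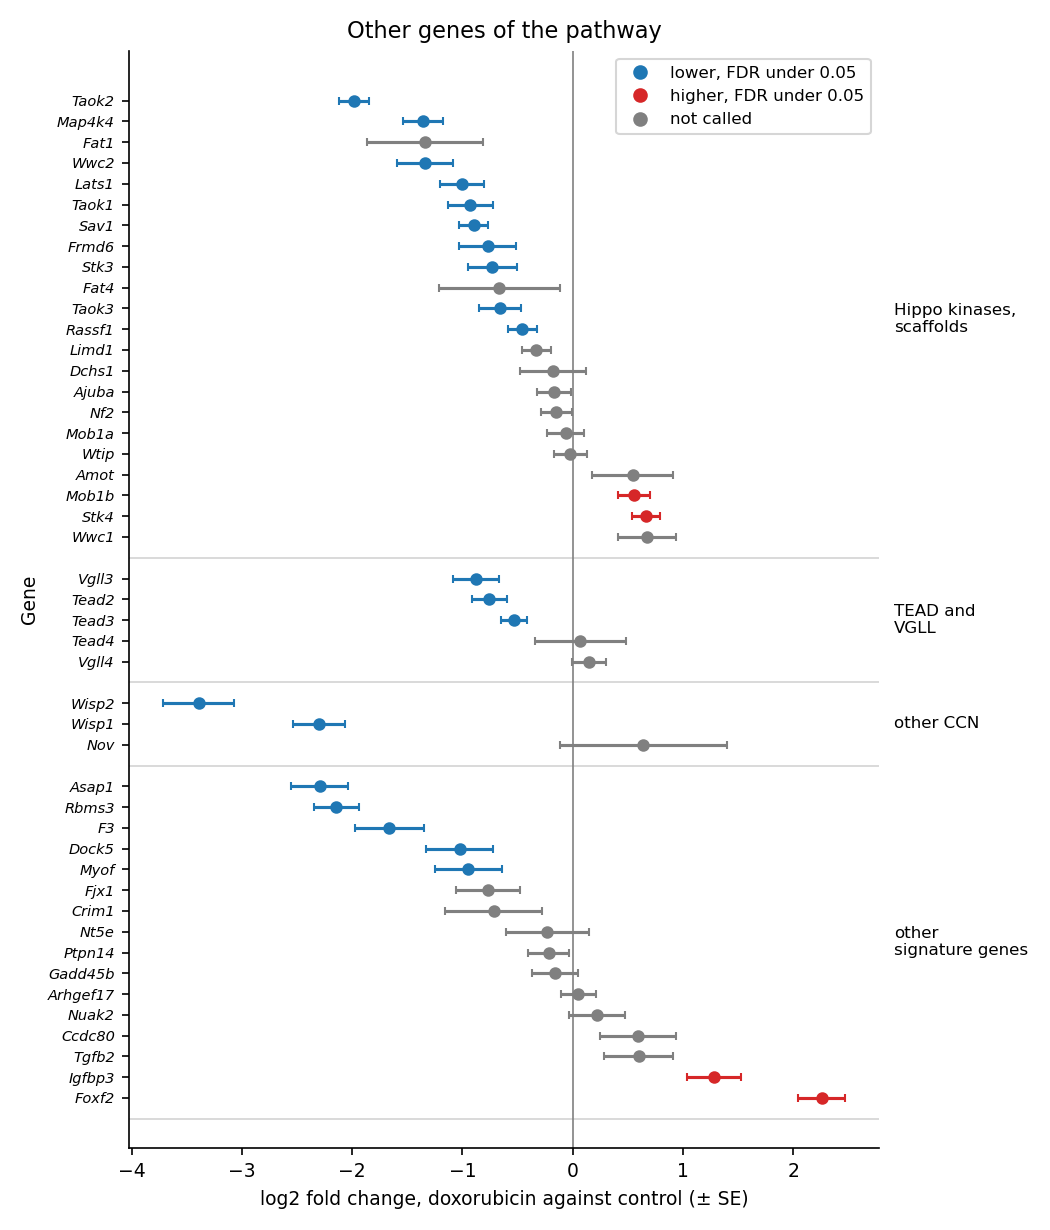
Fitted log2 fold change of doxorubicin against control with its SE (horizontal axis) for 46 other genes of the pathway, by list, in blue where called lower, in red where called higher and in grey where not called. Calls lie on both sides of 0 among the Hippo genes and the signature genes, from Wisp2 at -3.39 to Foxf2 at 2.26.

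The genes whose levels most resembled those of Ankrd1 over the 9 libraries, among 13819 genes with a mean of at least 1 CPM, were Mrpl35 (Pearson r = 0.993), Braf (0.992), Samd4 (0.992), Tmem39a (0.992) and Luc7l2 (0.992). Their log2 fold changes with doxorubicin were -1.64, -1.72, -3.11, -1.90 and -1.62. In all, 816 genes had r of 0.95 or more, and all are read over the same split of treated and control libraries. Among the 10 genes the resemblance to Ankrd1 was 0.945 for Cyr61, 0.930 for Ctgf, 0.906 for Amotl2, 0.873 for Tead1, 0.811 for Amotl1, 0.664 for Wwtr1, 0.364 for Lats2, 0.317 for Yap1 and -0.16 for Axl.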

How the data were processed

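RNA from WT, Het and KO primary MEFs was depleted of rRNA and sequenced as single-end reads. The authors aligned the reads to mm10 with HISAT2 (version 2.1.0 in the submitters' processing notes, another version in the study's methods) and used the union mode of HTSeq with an iGenomes annotation to obtain reads per gene. The deposited values are these raw counts for 24062 genes in 10 libraries. The strand setting is not given in the sources used here.

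Here, 9 libraries of 15560728 to 24122414 counts were used. Counts were tested with edgeR 4.0.16 in R 4.3.3 (TMM, filterByExpr, quasi-likelihood test, Benjamini-Hochberg FDR under 0.05 over all genes tested), with genotype as covariate for doxorubicin against control. The SE is the log2 fold change divided by the square root of F. DESeq2 1.42.0, no filter, FDR under 0.01, other models and leaving out each embryo were the alternatives. The members and lists were chosen with earlier results of these data known. Named genes are the members and, from each pathway list and direction, up to 6 genes called with or without the embryo block with the largest change, to which Stk3, Taok3, Tead4, Vgll1 and Vgll2 were added after their values were seen. Same-numbered libraries of a genotype were taken as 1 embryo. The KO1 to KO2 difference in controls and in doxorubicin libraries had a Pearson r of 0.385 across 14883 genes, against 0.233 with KO3 in place of KO2. As nothing says that cultures of an embryo were independent, p-values measure only the spread between these libraries. Exon lengths and coordinates are from GENCODE vM21 (GRCm38), promoters from RefSeq. Intervals from counting would cover counting error only.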

Additional observations from a re-analysis of the deposited data

Results flagged for a closer look

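Of 30 sets of 4 or 5 values examined for a library far from the others, 3 were past Dixon's limit, and chance passes about 1 in 20 such sets. All 3 came from the Het embryo. In its doxorubicin library Amotl1 had 226 CPM against 115 to 122 CPM in the other treated libraries. Yap1 had 141 CPM there against 232 to 248 CPM. The log2 ratio of doxorubicin to control for Amotl2 was -1.15 in the Het embryo against -1.90 in WT, -1.81 in KO1 and -1.87 in KO2. The Het libraries are those with high macrophage markers, and the part of that in these values was not tested. Axl had a log2 ratio of 0.15 in the Het embryo and of -0.12 and -0.26 in the KO embryos, a difference in sign that was not tested.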

How the results depend on the processing

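Ankrd1, Ctgf and Cyr61 were the 3 lowest of the 10 genes in 12 of 12 alternatives, and 9 of the 10 genes stayed below 0 in all 12. Ankrd1 ranged from -5.22 to -4.69 on the log2 scale. Axl ranged from -0.17 to 0.21. The number of genes called for doxorubicin over all genotypes stayed within 1.5 times. Within KO the count moved from 5130 genes to 1911 at FDR under 0.01, to 11239 with the replicate block, and to between 733 and 9992 when a KO embryo was left out, lowest without KO2 and highest without KO3. KO against WT called 0 genes in controls, and 0 to 64 without 1 KO embryo (64 without KO1, 53 without KO2). In treated libraries it called 46 genes, against 30 at FDR under 0.01, 5 with DESeq2 and 0 with all libraries in one fit, and without KO1 or KO2 no test remained. The interaction called 0 genes, 12 with the replicate block, 12 with the block when the duplicated library was taken as KO3 (an alternative chosen after seeing the data), and 0 to 20 without 1 KO embryo (20 without KO1, 16 without KO2). In every setting with a test, 0 of the 10 genes were called by genotype or interaction. The interaction of Ctgf was -0.15, and -0.51 (SE 0.25) with the planned replicate block. It turned to 0.13 in the added block that takes the duplicated library as KO3. Without 1 KO embryo it lay between -0.54 and 0.078, at 0.0055 without KO1 and 0.078 without KO2. Of the counts for the pathway lists, 19 of 104 moved by over 1.5 times. The fall of Hippo genes was 10, 6 without WT, KO1 or KO2, and 16 without Het and KO3. The fall of signature genes was 5, 3 without WT, KO1 or KO2, 8 without KO3 and 9 without Het and KO3, and the rise was 2, or 4 without KO3. TEAD and VGLL genes fell in 3 cases, or 1 without KO1. The replicate block also called Limd1, Dchs1, Crim1 and Nt5e lower and, beside the calls given in the report, changed no other call on the pathway lists. The causes were not tested.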
